A study of Mus musculus with 15 samples.

Results

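The genes that encode the proteins of the cytosolic ribosome were examined in RNA-seq libraries of preSertoli cells of the mouse fetal testis. Members were chosen by symbol: Rps or Rpl followed by a number and, in some, one of the endings a, x, l, l1 or y, with the acidic stalk genes Rplp0, Rplp1 and Rplp2 and with Rpsa added. The rule found 79 of the 27697 gene symbols in the RNA-seq table, on 82 of its 28427 rows. Of these, 73 were core ribosomal protein genes (30 of the small and 43 of the large subunit), and 6 were paralogs (Rpl3l, Rpl10l, Rpl39l, Rpl22l1, Rpl7l1 and Rps27l), which are described apart. Some standard genes, among them Rpl13a, Rpl31 and Rps23, were not analysed here.

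The series mapped regulatory elements of preSertoli cells, the precursors of the Sertoli cells that support germ cells in the testis cords, and holds 15 samples, of which the 3 RNA-seq libraries are used here. All 3 belong to 1 group: sorted preSertoli cells of embryonic stage E15.5, from fetal testes of C57BL/6J x CD-1 (F1) mice, with no treatment named. About 165 embryos were pooled into 3 replicates of about 1000000 cells each, so a library is a pool of animals, and the marker by which these RNA samples were sorted is not stated in their labels. Column numbers give the libraries their names 1, 2 and 3, and a column could not be tied to a single sample of the group. They held 47766422, 56007688 and 51725096 expected counts over all rows. After repeated rows had been dropped and 1 row kept per symbol, 1 count equalled 0.0210, 0.0179 and 0.0194 CPM (counts scaled to a library total of 1000000). There is no second group, so the values are a description and no test between conditions was possible. All 12 Sertoli markers were at 1 CPM or more in every library, with Sox9 at 280, 284 and 218 CPM. So were 13044 of 27697 symbols (47.1%) and all 6 genes listed as Leydig cell markers, so passing this level does not identify the cells.

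A ribosome joins a small subunit, which reads the messenger RNA, to a large subunit, which forms the peptide bonds. Each subunit is a core of ribosomal RNA bound by many small, mostly basic proteins, nearly all present in a single copy. The messenger RNAs of these proteins typically begin with a C followed by a run of pyrimidines, the terminal oligopyrimidine tract, through which growth signals set their translation as a group. Many of the genes also carry small nucleolar RNA genes in their introns and have left large numbers of processed pseudogenes across mammalian genomes.

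RefSeq's promoter table (GRCm38.p6, 250 bases before to 50 bases after each annotated start) held 54 of the 73 core genes with 64 starts. These 8 windows run 5′ to 3′ from 10 bases before to 20 bases from the start on, and are shown because a tract of C and at least 4 more pyrimidines (C or T) begins exactly at the annotated start. Capitals mark the tract.
Rpl15: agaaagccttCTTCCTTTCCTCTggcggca (chr14:18270967-18270996, reverse strand)
Rpl35: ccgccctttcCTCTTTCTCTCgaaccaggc (chr2:39005112-39005141, reverse strand)
Rps6: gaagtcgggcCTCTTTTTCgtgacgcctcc (chr4:86857348-86857377, reverse strand)
Rps18: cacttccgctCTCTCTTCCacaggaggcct (chr17:33955646-33955675, reverse strand)
Rpl28: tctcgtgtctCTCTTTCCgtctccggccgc (chr7:4792955-4792984, forward strand)
Rpl38: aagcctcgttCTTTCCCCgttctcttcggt (chr11:114668570-114668599, forward strand)
Rps10: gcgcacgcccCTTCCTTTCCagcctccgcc (chr17:27635225-27635254, reverse strand)
Rplp2: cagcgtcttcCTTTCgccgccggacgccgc (chr7:141447641-141447670, forward strand)

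Such a tract began exactly at an annotated start in 13 of 54 core genes, or 24.1%, against 3.01% of the 27025 genes of the promoter table and 3.07% of its 9791 genes expressed here. The other members with the tract were Rpl14, Rpl35a, Rps15a, Rps21 and Rps27. When the tract was allowed to begin within 10 bases of the start, 31 core genes (57.4%) held it, beside 34.4% of all genes and 37.2% of expressed genes. The exact count depends on how precisely each start is annotated.

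The 60 bases before the start are shown next for 6 core genes, because they hold the letters TCTCGCGA or CCGGAAG, which mark 2 motifs searched on both strands. Capitals mark each match, in either orientation. In Rpl12 and Rpl26 the matches on both strands overlap in a palindrome. CCGGAAG is the core of the site of ETS factors such as Gabpa.
Rpl12: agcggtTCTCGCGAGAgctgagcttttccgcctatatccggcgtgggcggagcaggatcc (chr2:32961652-32961711, forward strand)
Rpl26: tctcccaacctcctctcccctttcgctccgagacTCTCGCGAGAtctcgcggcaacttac (chr11:68901506-68901565, forward strand)
Rps19: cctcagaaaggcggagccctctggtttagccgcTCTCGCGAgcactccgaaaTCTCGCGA (chr7:24884532-24884591, forward strand)
Rps3a: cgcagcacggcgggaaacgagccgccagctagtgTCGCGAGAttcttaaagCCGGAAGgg (chr3:86142669-86142728, reverse strand)
Rpl38: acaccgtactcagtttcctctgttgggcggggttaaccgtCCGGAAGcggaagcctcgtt (chr11:114668520-114668579, forward strand)
Rps10: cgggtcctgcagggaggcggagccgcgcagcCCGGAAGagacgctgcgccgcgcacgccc (chr17:27635245-27635304, reverse strand)

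CCGGAAG was found anywhere in the promoter window of 23 of 54 core genes (42.6%), against 9.93% of all genes and 20.2% of expressed genes. TCTCGCGA was found in 11 core genes (20.4%), against 1.13% of all genes and 2.51% of expressed genes. AANATGGC, the core of the Yy1 site, was in 10 core genes (18.5%), beside 9.96% of expressed genes. Another 3 motifs were less frequent than among expressed genes: GGGCGG, a site of Sp factors, was in 59.3% of core genes and 70.1% of expressed genes, CCAAT in 29.6% and 43.3%, and CACGTG, the E-box of Myc, in 9.26% and 11.9%. The letters TATAAA were in 11.1% of core genes and 8.52% of expressed genes. The median GC content of the windows was 58.2% for core genes, 52.7% for all genes and 61% for expressed genes. A match describes letters in a window only, and a gene with several annotated starts counted as holding a motif when any window did.

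Ribosomal protein genes were among the most read genes of these cells. Of the 79 members, 77 were at 1 CPM or more in all 3 libraries, against 13044 of 27697 symbols (47.1%). The members outside that count were the paralogs Rpl10l and Rpl3l, and all 73 core genes passed. The core genes together took 3.11%, 3.22% and 3.58% of libraries 1, 2 and 3, a mean of 3.30% ± 0.243 (SD, n = 3). Of the 100 symbols with the highest mean CPM, 8 were core genes, and the top 500, 1000 and 2000 held 48, 66 and 71 of the 73. The median core gene was at 397, 427 and 485 CPM in the 3 libraries, and the median over core genes of the mean CPM was 439, beside 32.7 for expressed symbols and 0.72 for all symbols. These CPM values are not divided by transcript length, so an order among genes is an order of their shares of reads, not of messenger RNA molecules, and a short messenger RNA gives fewer reads per molecule.

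Mean read share ranged from 98.2 CPM for Rpl36 to 1270.4 CPM for Rpl4. Thus 72 of the 73 core genes had a mean of 100 CPM or more, 28 of 500 or more and 2 of 1000 or more. Over all 27697 symbols the numbers were 2560, 236 and 57. The lowest count of any core gene in any library was 4259 (Rpl36), for which counting error alone gives a coefficient of variation (CV) of 1.53%. The ratio of the 90th to the 10th percentile over core genes was 3.75, 3.50 and 3.95 in libraries 1, 2 and 3. The 10 most read core genes took 26.5%, 25.6% and 26.4% of the core reads. Across the 73 genes, log2 CPM correlated between libraries with a Pearson r of 0.99 (1 and 2), 0.97 (1 and 3) and 0.97 (2 and 3). These are correlations across genes, which share libraries and differ in length, and genes are not independent replicates.

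**Figure D1:**
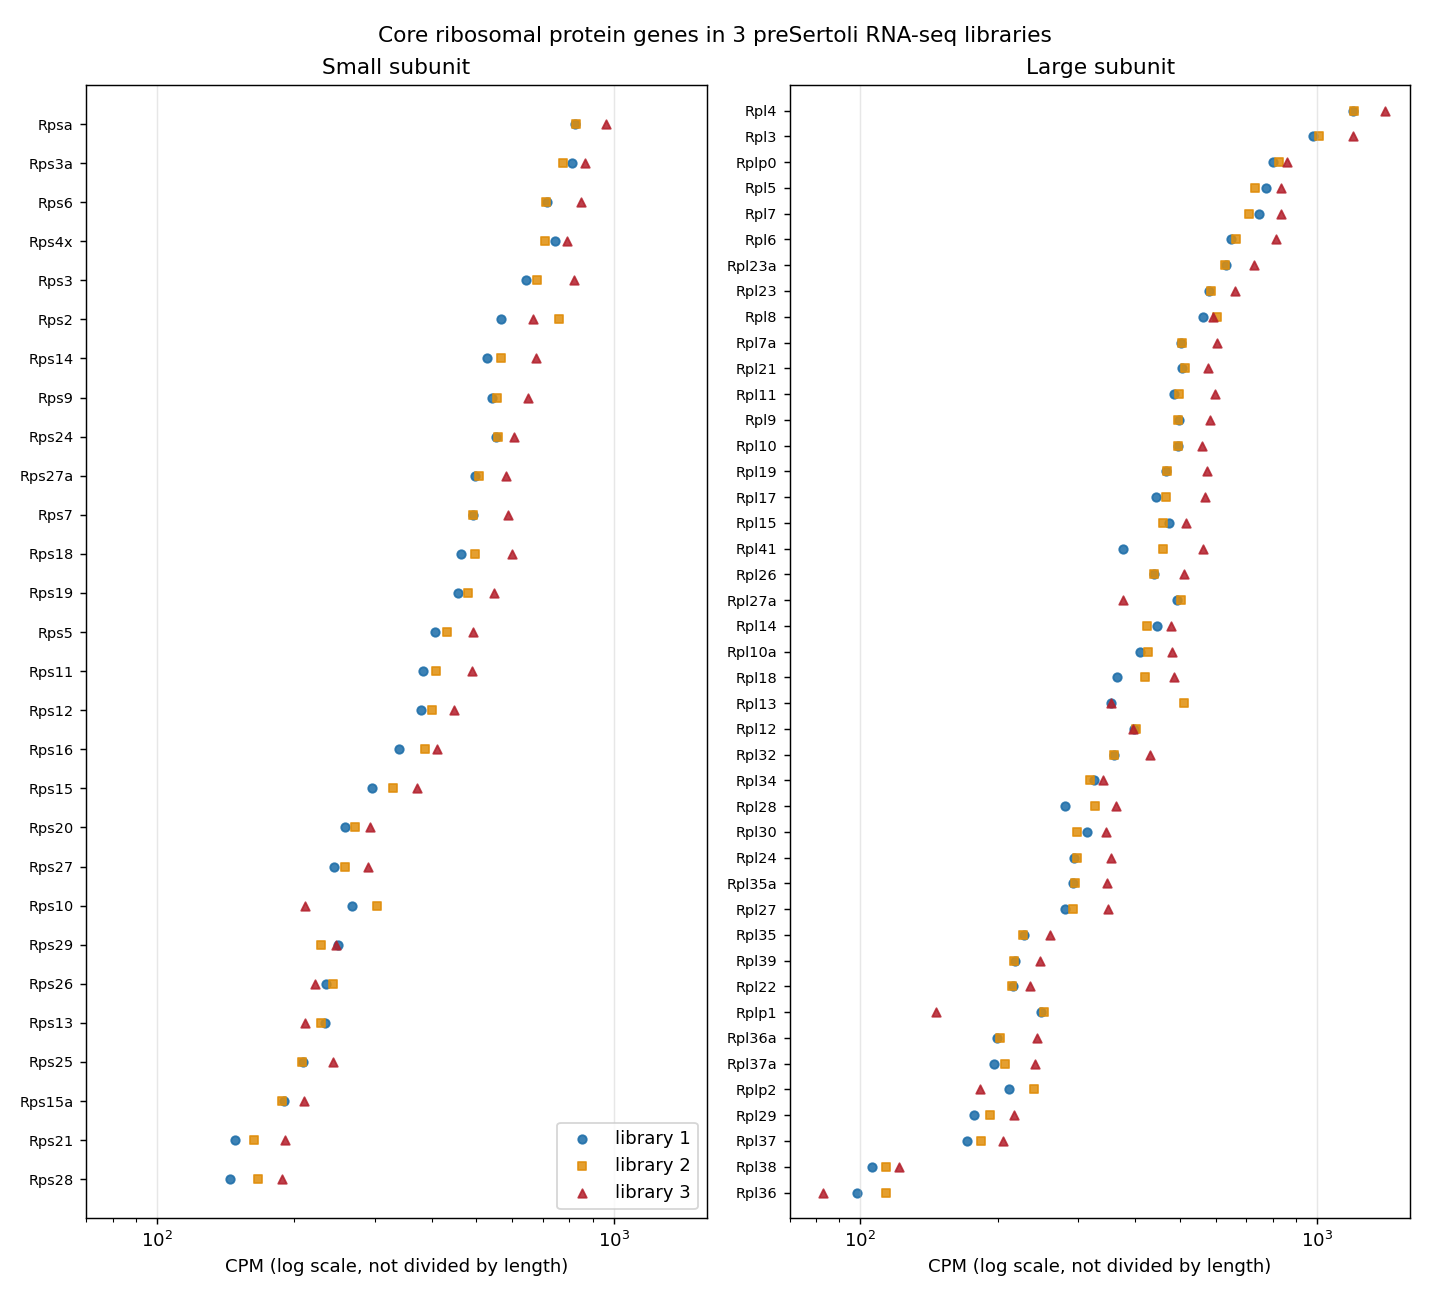
CPM (log axis, not divided by length) of core small-subunit genes on the left and large-subunit genes on the right, with 1 symbol per library. A few core genes are not drawn. Within a gene the 3 libraries lie close together beside the distance from Rpl36 (mean 98.2 CPM) to Rpl4 (mean 1270.4 CPM), and library 3 lies to the right for most genes but to the left for Rplp1, Rps10 and Rpl27a.

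Among the small-subunit genes, Rpsa, which also encodes the laminin receptor, had the highest read share, with 822, 827 and 962 CPM (mean 870 ± 79.5, SD, n = 3). Rps3a followed with 809, 773 and 864 CPM (mean 815 ± 45.4). Rps6, whose protein is the classical substrate of the S6 kinases, was at 716, 711 and 846 CPM. For Rpsa and Rps6, libraries 1 and 2 nearly coincided and library 3 was higher, whereas for Rps3a library 2 was the lowest. Rps4x, the X-linked gene, had 742, 707 and 788 CPM, and Rps3, at the entry of the messenger RNA channel, had 644, 679 and 817 CPM.

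The least read small-subunit genes were Rps28, with 145, 167 and 188 CPM, Rps21, with 148, 163 and 191 CPM, and Rps15a, with 190, 188 and 209 CPM. Library 3 was the highest for each of them too. The median small-subunit gene was at 401, 422 and 494 CPM, and small-subunit genes took 41.3%, 41.6% and 41.7% of the core reads.

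Among the large-subunit genes, Rpl4, whose protein lines the exit tunnel of the growing peptide, had 1197, 1205 and 1409 CPM (mean 1270.4 ± 120, SD, n = 3). Rpl3, which lies near the peptidyl transferase centre, had 977, 1010 and 1199 CPM (mean 1062 ± 120). In both genes library 3 lay well above libraries 1 and 2, which were close to each other. Rpl7 was at 744, 708 and 834 CPM.

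The least read large-subunit genes were Rpl36 (98.3, 114 and 82.7 CPM), Rpl38 (106, 114 and 122 CPM), Rpl37 (171, 184 and 205 CPM) and Rpl29 (177, 192 and 217 CPM). Rpl36 differed from the other 3 in being lowest in library 3. The median large-subunit gene was at 397, 427 and 477 CPM. The median log2 CPM of small-subunit genes minus that of large-subunit genes was 0.02, -0.02 and 0.05 in libraries 1, 2 and 3, a mean of 0.02 ± 0.03 (SD, n = 3), so the subunits differed by less than the spread between libraries on this scale.

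The exit tunnel of the large subunit is lined or ringed by a set of ribosomal proteins, and all 7 analysed genes of that list (Rpl4, Rpl17, Rpl39, Rpl23a, Rpl26, Rpl35 and Rpl19) were highest in library 3, where 35% of all symbols at 1 CPM or more and 83.6% of core genes were highest. Rpl23a, at the tunnel's end where targeting factors dock, had 630, 629 and 726 CPM. Rpl39, one of the smallest ribosomal proteins, had 218, 217 and 247 CPM. In both, libraries 1 and 2 were nearly equal. Rpl31 of the same list was not analysed here.

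Rpl5 and Rpl11 enter the large subunit together with a small ribosomal RNA, and outside the ribosome they bind Mdm2, the ligase that restrains p53. Rpl5 had 771, 733 and 831 CPM (mean 778 ± 49.8, SD, n = 3), and Rpl11 had 487, 498 and 597 CPM (mean 527 ± 60.6). Both were highest in library 3, but Rpl5 was lowest in library 2 and Rpl11 in library 1.

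The lateral stalk recruits the translational factors that split GTP, and 3 of its 4 genes shared an order of highest and lowest library, which Rplp0 did not. Rplp0, its base, had 799, 824 and 860 CPM (mean 828 ± 30.7, SD, n = 3). Rplp1, 1 of the acidic proteins it carries, had 248, 252 and 147 CPM (mean 216 ± 59.8), and Rplp2, the partner of Rplp1, had 211, 240 and 182 CPM (mean 211 ± 29.0). Rpl12, at the stalk's foot, had 397, 402 and 394 CPM, with the smallest CV of the core genes, 0.957%. Library 3 was thus the highest for Rplp0 and the lowest for Rplp1, Rplp2 and Rpl12, where Rpl12 nearly did not vary. Rplp1, Rplp2 and Rpl12 were each highest in library 2. In all, 9 of 73 core genes and 4905 of 13044 expressed symbols were lowest in library 3.

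A list of 10 genes known for mutations in Diamond-Blackfan anaemia, a failure of red cell formation, was at 1 CPM or more throughout, as were 47.1% of all symbols. Of the 10, 8 were highest in library 3, a share near the 83.6% of all core genes (35% of expressed symbols). Rps19, the most often mutated, had 457, 480 and 546 CPM (mean 494 ± 46.4, SD, n = 3). Rps24 had 553, 557 and 604 CPM, and Rps7 had 491, 492 and 588 CPM. In each of these the gap between libraries 1 and 2 was smaller than the gap to library 3. Rpl26 had 439, 440 and 512 CPM and Rpl35a had 293, 296 and 346 CPM. The exceptions were Rps10, with 267, 304 and 211 CPM, and Rps26, with 235, 243 and 222 CPM, both lowest in library 3.

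Of 6 genes known from mouse mutants of ribosomal proteins (Rpl38, Rpl24, Rps19, Rps20, Rps7 and Rpl27a), 5 were highest in library 3, which is again near the core share of 83.6% (35% of expressed symbols). Rpl38, whose loss alters the skeleton of the tail-short mouse, had the second lowest read share of the core genes. Rpl24, mutated in the belly spot and tail mouse, had 293, 298 and 353 CPM. Rpl27a had 492, 503 and 375 CPM and was the exception.

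Genes for a ribosomal protein and a ribosomal scaffold that lie outside the symbol rule were also read throughout. Gnb2l1, the older symbol of the scaffold Rack1, had 711, 713 and 829 CPM (mean 751 ± 67.5, SD, n = 3). Fau, a fusion of a ubiquitin-like protein with a small-subunit protein, had 237, 251 and 288 CPM (mean 259 ± 26.1). Both were highest in library 3.

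Most core genes, of either subunit, had their highest level in library 3. Of the 73, 61 had their highest CPM there (25 of 30 small-subunit and 36 of 43 large-subunit genes), against 35% of the 13044 symbols at 1 CPM or more and 38.5% of those at 100 CPM or more. Library 2 was the highest for 10 core genes and library 1 for 2. On the log2 scale, library 3 minus the mean of libraries 1 and 2 had a median of 0.20 over core genes, which is 15.3%, beside -0.01 over expressed symbols and 0.00 over symbols at 100 CPM or more. By comparison, library 2 minus library 1 had a median of 0.03 over core genes. In 49 core genes library 3 was more than 10% above both others, where 11% of expressed symbols were, and in 5 it was more than 10% below both, where 13.2% were. The comparison of library 3 with the others was chosen after the values had been seen, and it sets a single pool against 2 pools of the same group.

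The pattern also appears in the spread between libraries. The median CV of core genes over the 3 libraries was 9.56%, against 6.76% for expressed symbols and 5.49% for those at 100 CPM or more. Over libraries 1 and 2 alone the core median was 2.74%, a value not computed for the other symbols. The CV ranged from 0.957% (Rpl12) to 27.7% (Rplp1), and in all 73 it was above the counting error of the gene's smallest count. That error was 1.53% or less in core genes. How many of all expressed symbols would pass was not computed, so the count does not set core genes apart. The steadiest genes after Rpl12 were Rpl34 (325, 319 and 340 CPM, CV 3.29%), Rpl8 (563, 604 and 591 CPM, CV 3.59%), Rplp0 (CV 3.71%) and Rps29 (250, 229 and 246 CPM, CV 4.60%). The 61 genes highest in library 3 were selected by that library, so a positive difference in each was fixed in advance. Its size, library 3 minus the mean of libraries 1 and 2, had a median log2 of 0.22, between 0.08 and 0.44. The top of that range was Rpl41, which encodes the smallest ribosomal protein, with 376, 460 and 562 CPM (CV 20.1%), all 3 libraries apart.

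**Figure D2:**
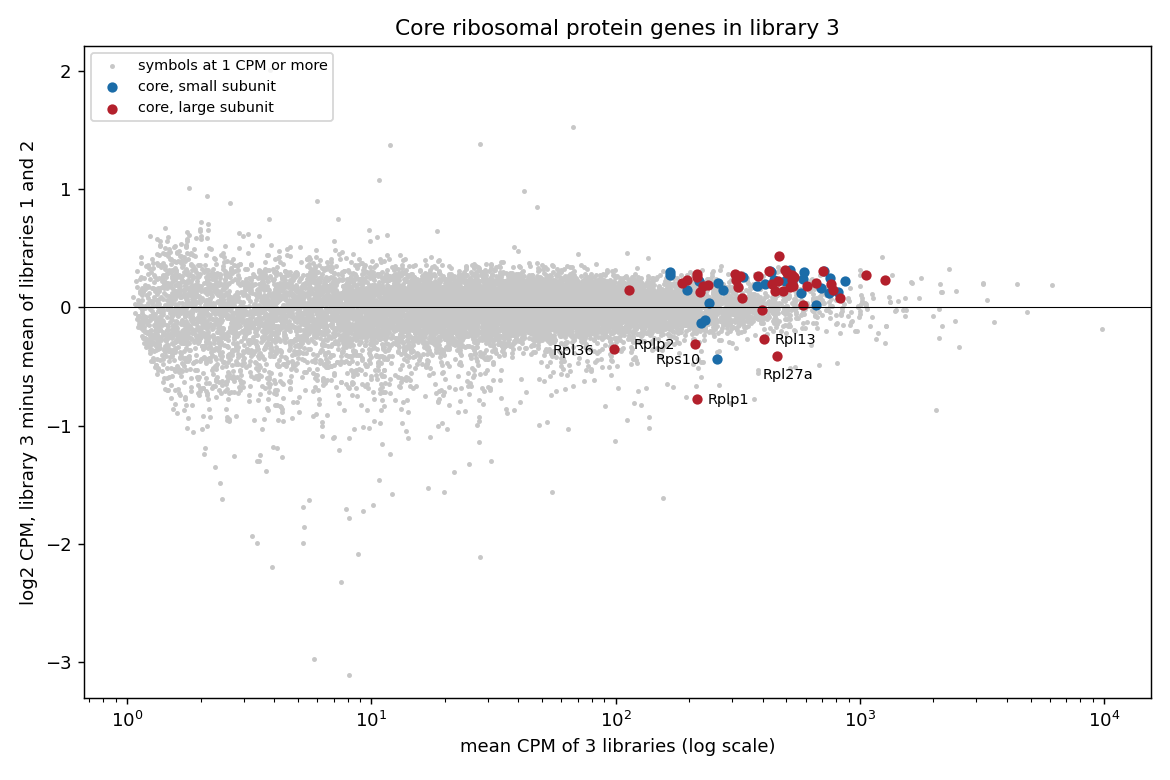
Log2 CPM of library 3 minus the mean of libraries 1 and 2, against mean CPM (log axis), for every symbol at 1 CPM or more (grey) and for core genes of the small (blue) and large (red) subunit. Most core points lie in a band above 0, with a core median of 0.20, while the 6 labelled genes, from Rpl13 at -0.27 to Rplp1 at -0.77, lie below it.

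Of the 12 core genes that were not highest in library 3, 10 were highest in library 2 and 9 were lowest in library 3. Over the 13044 expressed symbols, 3947 were highest in library 2 and 4905 lowest in library 3. The 12 were selected by library 3, which raises both of their counts. The size of the difference varied among the 12. For Rplp1, library 3 minus the mean of the others was -0.77 on the log2 scale (-41.4%), a difference lower than that of all but 1.14% of expressed symbols. Rps10 (log2 -0.44), Rpl27a (-0.41), Rpl36 (-0.35) and Rplp2 (-0.31) were likewise lowest in library 3. Rpl13 stood out in library 2, with 354, 510 and 353 CPM (CV 22.2%), and its values in libraries 1 and 3 nearly coincided. Rps2, at the messenger RNA entry, had 565, 761 and 666 CPM (CV 14.7%). Rps13 (234, 228 and 210 CPM) and Rps26 were slightly lower in library 3 (log2 -0.13 and -0.11). For Rpl12, Rpl8 and Rps29 the difference was between -0.02 and 0.04.

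Features outside the expression values were counted in these 12 and in the other 61. Of their 8 genes in the promoter table, 2 (Rps10 and Rplp2, printed above) had the pyrimidine tract exactly at a start, beside 11 of the 46 others. CCGGAAG was in 5 of the 8 and 18 of the 46, and TCTCGCGA in 2 of the 8 and 9 of the 46. A nested small nucleolar RNA gene was annotated in 6 of the 12 and 22 of the 61. Across the core genes, mean CPM and the library 3 difference had a Pearson r of 0.29 and a Spearman rho of 0.14 (73 genes of the same 3 libraries).

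Several other lists moved with the libraries, and their part in the core gene pattern was not tested. The summed level of the 12 Sertoli markers was 9402, 10081 and 8996 CPM, with Amh, the anti-Müllerian hormone gene, at 2177, 2673 and 1325 CPM. Clu, the most read of them, had 2994, 3083 and 3483 CPM instead. Of the 12, 5 were highest and 5 lowest in library 3, with a median log2 difference of -0.03. Among all 13044 expressed symbols, 35% were highest and 4905 were lowest in library 3, so the Sertoli counts lay near these shares. All 6 genes listed as Leydig cell markers were at 1 CPM or more in every library, as were 47.1% of all symbols. Their sum, which includes Nr5a1, was 2167, 2520 and 1755 CPM. Star had 332, 355 and 196 CPM and Insl3 had 53.8, 88.3 and 23.3 CPM. Whether the 6 genes were read from Leydig cells only was not tested. Of these 6, 5 were lowest in library 3, beside the 4905 of 13044 expressed symbols, and Nr5a1, at 484, 520 and 535 CPM, was highest there. Of 7 blood markers 3 were at 1 CPM or more, and all 7 summed to 79.6, 132 and 59.5 CPM, and Hbb-bh1 was at 0 in libraries 1 and 3. The 10 germ cell markers, 8 of them at 1 CPM or more, summed to 77.3, 56.5 and 64.6 CPM, and the 6 endothelial markers, 3 of them at 1 CPM or more, to 32.2, 32.2 and 30.0 CPM. In pooled cells, fewer cells of a type and less RNA per cell cannot be told apart.

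Genes of the wider translation apparatus were mixed in their order of libraries. Of 38 translation factors 37 were at 1 CPM or more in every library, and 22 of the 37 (59.5%) were highest in library 3, with a median log2 difference of 0.06, where 35% of all expressed symbols were highest there. Eef1a1, which brings aminoacyl-tRNA to the ribosome, had 5841, 5881 and 6680 CPM, and Eef2, the translocation factor, had 1932, 2133 and 2336 CPM. Eif4g2, a scaffold of initiation, had 1581, 1452 and 1490 CPM, and the factor below 1 CPM was Eef1a2 (mean 0.17 CPM). Eef1a1 and Eef2 shared the core pattern, and Eif4g2 did not.

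All 39 analysed ribosome biogenesis genes were expressed, as were 47.1% of all symbols. Of the 39, 22 (56.4%) were highest in library 3, beside 35% of all expressed symbols, with a median difference of 0.04. The most read were Ncl, which encodes nucleolin (908, 849 and 931 CPM), Npm1, which encodes nucleophosmin (790, 712 and 824 CPM), and Polr1a, the largest subunit of RNA polymerase I (244, 255 and 258 CPM). Of the 74 mitochondrial ribosomal protein genes, all expressed, 41 (55.4%) were highest in library 3, at a median difference of 0.06 and a median mean level of 30.2 CPM. Among 17 regulators of ribosome production, all expressed, 4 (23.5%) were highest in library 3 and the median difference was -0.04. Larp1, which binds the capped start of terminal oligopyrimidine messenger RNAs, was the most read of these with 303, 336 and 346 CPM. These lists were not tested against the core genes.

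**Figure D3:**
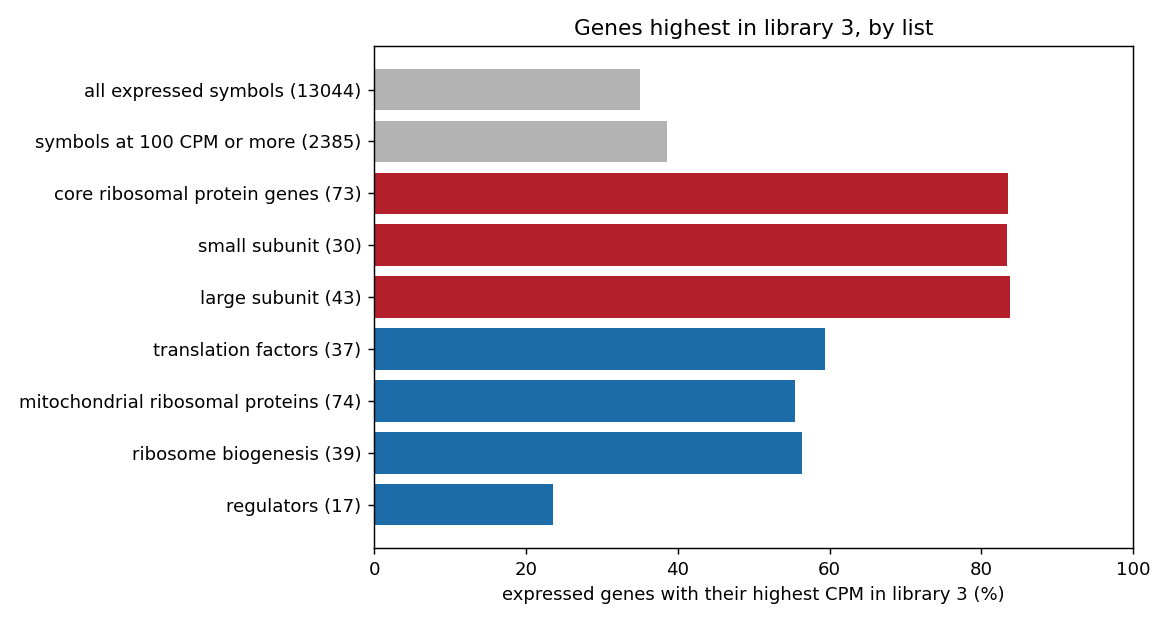
Percent of expressed genes whose highest CPM was in library 3, with the number of expressed genes of each list in brackets. The core genes (red, whole and by subunit) reach 83.6% as a whole, the 4 other lists (blue) lie between 23.5% and 59.5%, and all expressed symbols (upper grey bar) are at 35%.

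The paralogs showed read shares from about the level of a modest core gene down to a handful of reads. Rpl7l1, a relative of Rpl7 that acts in ribosome assembly, had 105, 100 and 111 CPM, so that Rpl7 had 7.23 ± 0.258 times its reads (SD, n = 3). Rps27l had 45.1, 40.5 and 45.0 CPM, and Rps27 had 6.07 ± 0.574 times as many. Rpl22l1 had 52.9, 48.5 and 48.1 CPM against 216, 214 and 236 CPM for Rpl22, a ratio of 4.47 ± 0.412. Rpl36al, which lies outside the symbol rule, reached 50.9% ± 1.86 of the reads of Rpl36a. In none of these 4 pairs do the values of paralog and parent overlap.

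The other 3 paralogs were near or below 1 CPM. Rpl39l, known as a paralog of male germ cells, had 1.87, 1.47 and 2.25 CPM from 89, 82 and 116 counts, and Rpl39 had 124 ± 20.3 times its reads. The exact Poisson 95% intervals, which cover counting error only, were 1.50 to 2.30, 1.17 to 1.83 and 1.86 to 2.70 CPM. Rpl10l, a retrogene that stands in for X-linked Rpl10 in spermatocytes, had 1.22, 0.861 and 1.24 CPM from 58, 48 and 64 counts, and Rpl10 had 478 ± 88.7 times its reads. Rpl3l, known from heart and skeletal muscle, had 0.147, 0.197 and 0.252 CPM from 7, 11 and 13 counts. Its 95% intervals of 0.059 to 0.303, 0.099 to 0.353 and 0.134 to 0.432 CPM overlap between libraries, so no difference was detectable at this depth. On the log2 scale Rpl3l was at -12.41 ± 0.25 relative to Rpl3, Rpl10l at -8.88 ± 0.26 relative to Rpl10 and Rpl39l at -6.95 ± 0.23 relative to Rpl39. Reads shared with the parent genes or their pseudogenes could raise or lower these low values, and the amount was not measured.

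**Figure D4:**
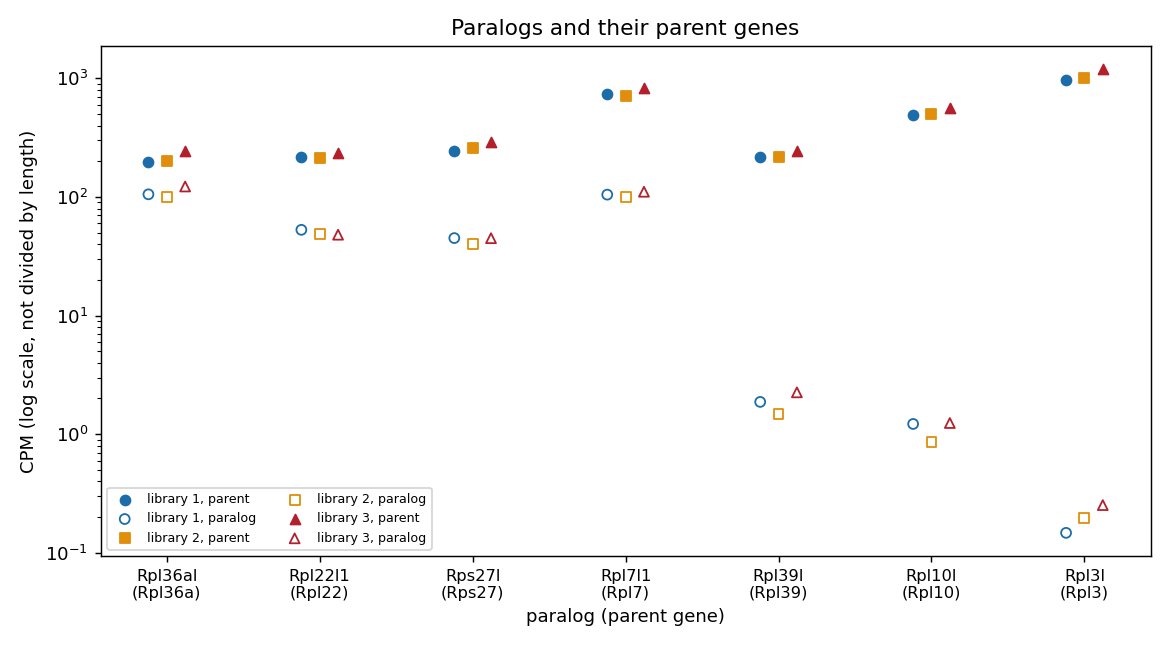
CPM (log axis, not divided by length) of each paralog (open symbols) and its parent gene (filled symbols) in the 3 libraries. The gap widens from Rpl36al, at 50.9% of Rpl36a, to Rpl3l, at 0.252 CPM or less beside Rpl3 at 977 CPM or more.

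Small nucleolar RNA genes were annotated by RefSeq within the span of 28 of the 73 core genes (38.4%), against 1.70% of 21900 protein-coding genes and 2.34% of the 11971 expressed ones. The 28 held 54 such genes, with 5 in Rpl4, 4 in Rpl7a, and 3 in Rpl3, Rpl5, Rpl17, Rps12 and Rpsa. These small RNAs guide chemical modification of ribosomal RNA, and poly-A libraries do not measure them.

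Copies of the genes make single values uncertain. RefSeq names 277 pseudogenes for 56 of the 73 core genes, and how reads were divided between copies is known only as far as the counting program. Rpl13a-ps1, a pseudogene of Rpl13a, had 670, 713 and 756 CPM (mean 713 ± 43.3, SD, n = 3), a level in the range of the most read core genes, while Rpl13a itself was not analysed here. Rps19-ps3 had 1.23, 1.43 and 1.49 CPM. Some symbols stood on several rows, of which the highest was used: Rpl29 had 3 rows with means of 195, 106 and 20.6 CPM, and Rps4x had 2 with means of 746 and 33.4 CPM.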

How the data were processed

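Poly-A RNA of 3 pools of sorted cells was sequenced as 50 bp single-end reads, per the labels' protocols. CASAVA 1.8.2, Bowtie 0.12.7 and RSEM 1.2.0, with build mm9, are named by the submitters' processing notes. The gene annotation is not given in the sources used here. The deposited values are square roots, per the file headers. Judged from the values, the authors had square-rooted estimated counts (expected counts) that were scaled in each library. A scaling to a 75th percentile of 1 was taken as given and does not enter the CPM. The squares of the deposited values were whole multiples of a common step in each library (100% within 0.05 of a step). The step was taken as 0.01 read, the rounding of RSEM's expected counts, which is an assumption that sets counts and depths but not CPM. CPM were computed here from the recovered expected counts, after 426 rows repeating another were dropped and the highest row kept per symbol. Division by coding length was planned, but no transcript or coding lengths were available to this work, so CPM replaced CPM per kilobase.

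Genes were named by rule: the highest and lowest core genes by level and by CV, every analysed member of the paralog, partner, stalk, Rpl5 and Rpl11 and anaemia lists, and the 3 highest of each other list; a few genes under this rule are not reported here. Members that differed from library 3's pattern, the motifs and the comparison of library 3 with the others were chosen after values had been seen. The members and lists were chosen with earlier results of these data known. A gene was called expressed at 1 CPM in all 3 libraries. Poisson and counting-error values treat expected counts as counts. With 1 group, no test was run and no p-value is given. The labels call the pools independent biological replicates. The open chromatin and H3K27ac files, in build mm9, were not analysed here, because the reference tables are of GRCm38.p6. Steps were tested on simulated data and run in Python 3.11.15 with pandas 2.3.3, numpy 2.4.6 and scipy 1.17.1. The alternatives were other scalings, other filters, a pseudocount and leaving out each library.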

Additional observations from a re-analysis of the deposited data

How the results depend on the processing

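Under the alternative settings 59 recomputed values stayed within their spread, or for counts within 1.5 times, and 4 moved further. For means over the libraries, leaving a library out cannot move the value by more than their SD. Those values were bound to count among the unmoved, so their number says nothing on robustness. With a pseudocount of 1 CPM, the log2 ratio of Rpl3l to Rpl3 was -9.79 in place of -12.41, that of Rpl39l to Rpl39 -6.32 in place of -6.95, and that of Rpl10l to Rpl10 -7.94 in place of -8.88, since these paralogs lie near the pseudocount. Leaving out each library in turn (chosen after seeing the data) gave a median core CV of 2.74% to 11.8%, with 2.74% without library 3, so the CV of 9.56% rests on that library. The same was not computed for expressed symbols outside the core. Under upper quartile and median-of-ratios scaling, the number of core genes highest in library 3 was 61 in each case, with median log2 differences of 0.21 and 0.22, and the share of reads stayed between 3.17% and 3.40% when a library was left out. The log2 difference between the subunits, 0.02, lay between -0.00065 and 0.03 then. No paired analysis was possible because the RNA libraries form a single group and their columns carry only numbers. Division by coding length and by effective coding length was not run, as no lengths were available to this work. Depth limits the precision of Rpl3l, Rpl10l and Rpl39l, while every core gene had 4259 counts or more in every library.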
